A study of Mus musculus with 79 samples.

Results

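The forkhead transcription factor family was followed through the expression and chromatin of the adult mouse hypothalamus. Its members were taken by symbol, as the rows of the expression table named Fox with a letter from a to s and a number, and 42 of the 25965 genes in the table fitted. Symbols with anything after the number were left out, so that Foxf1, which the table lists as Foxf1a, was not analysed here. Hypothalamus came from mice aged 14 weeks of 2 genotypes. The +/+ mice carried a pair of normal Dnmt3a alleles. The Δ/D329A mice carried Dnmt3a deleted on the maternal allele, by a Zp3-Cre that acts in oocytes. Their other allele carried the D329A substitution in the PWWP domain, a part of the methyltransferase proposed to bind H3K36me3. All were on a C57BL/6Babr background. Loss of one normal copy and presence of the altered protein cannot be told apart in this comparison, and the study's other genotypes and its bisulphite libraries were not analysed here. RNA-seq was made from 5 +/+ and 4 Δ/D329A animals, and ChIP-seq for H3K27me3, H3K4me3, H3K36me3 and input from 3 animals of each genotype. The labels give no sex. In RNA-seq Xist was at no less than 13.9 RPKM and 4 genes of the Y chromosome had 0 or 1 read together in each library, so that these animals were female, while in the input of ChIP-seq the mean signal per tile of the X chromosome was 0.415 to 0.429 of that of the autosomes and the study names males. RNA and chromatin are therefore from different animals of different sex.

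Forkhead proteins share a winged-helix DNA-binding domain and many bind the core GTAAACA. Members of the FoxA, FoxC and FoxD groups pattern the embryo and are silenced by Polycomb in most adult cells, where H3K27me3 covers their CpG-rich promoters, often together with H3K4me3 in what is called bivalent chromatin. FoxO proteins act throughout life under control of insulin and PI3 kinase, and in the hypothalamus they are known for their part in feeding. H3K4me3 marks active or poised starts, and H3K36me3 lies over the bodies of transcribed genes.

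RNA libraries held between 3837228 and 9729187 reads on genes, and ChIP libraries between 12676361 and 30207875 uniquely mapped reads. All 12 hypothalamic neuron genes listed, among them Pmch and Hcrt, were expressed, with a summed level of 379 to 792 RPKM in +/+ and 434 to 646 RPKM in Δ/D329A. Reads on Dnmt3a numbered 802 to 1320 in +/+ and 497 to 770 in Δ/D329A, a log2 difference of -0.28 ± 0.13 (SE, limma adjusted p = 0.355). That count does not check the genotype, since transcripts of the altered allele are counted too. H3K4me3 of Δ/D329A replicate 1 had the highest background, with a median of 5 reads per tile against 1 to 3 in the other H3K4me3 libraries.

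The promoters sort the family into 4 groups. A promoter was taken as the 2 kb tiles centred from 1500 bp before to 500 bp after the listed start, its signal as their mean in RPM, the read count scaled by the library's mapped reads, and a mark was counted where it was at least 2-fold over input in each of the 3 +/+ animals. H3K27me3 marked 19 of the 42 forkhead promoters, against 8.43% of all 25952 promoters. H3K4me3 marked 25 of the 42, against 55.1% of all. Both marks lay together on 11 forkhead promoters (26.2%, against 4.9% of all). H3K27me3 without H3K4me3 was found on 8 (19.0%, against 3.53%), H3K4me3 alone on 14 (33.3%, against 50.2%), and neither mark on 9 (21.4%, against 41.3%). The 2 groups with H3K27me3 lay well inside the limit: the lowest of their mean log2 ratios to input was 2.15, at Foxq1, and the nearest promoters outside were Foxp4 at 1.37 and Foxi2 at 1.06.

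One promoter of each group is printed to show how the groups differ in CpG content, as the 250 bases before the RefSeq start (GRCm38.p6, 5′ to 3′ along the gene, each CG in capitals). Foxc1, with both marks, is at chr13:31806396-31806645 on the + strand, Foxd3, with H3K27me3 alone, at chr4:99656049-99656298 on the + strand, Foxo3, with H3K4me3 alone, at chr10:42276696-42276945 on the - strand, and Foxr2, with neither, at chrX:153118538-153118787 on the + strand.
Foxc1: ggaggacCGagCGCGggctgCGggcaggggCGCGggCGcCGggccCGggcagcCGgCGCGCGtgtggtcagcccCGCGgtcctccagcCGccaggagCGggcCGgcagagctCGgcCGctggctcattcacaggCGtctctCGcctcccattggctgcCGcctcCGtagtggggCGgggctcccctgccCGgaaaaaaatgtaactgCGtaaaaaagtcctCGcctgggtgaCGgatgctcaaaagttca
Foxd3: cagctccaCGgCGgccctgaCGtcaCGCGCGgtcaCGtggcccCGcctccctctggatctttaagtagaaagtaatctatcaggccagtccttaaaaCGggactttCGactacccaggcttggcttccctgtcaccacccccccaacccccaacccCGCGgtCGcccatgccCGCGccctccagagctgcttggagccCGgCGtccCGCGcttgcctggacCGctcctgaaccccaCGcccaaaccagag
Foxo3: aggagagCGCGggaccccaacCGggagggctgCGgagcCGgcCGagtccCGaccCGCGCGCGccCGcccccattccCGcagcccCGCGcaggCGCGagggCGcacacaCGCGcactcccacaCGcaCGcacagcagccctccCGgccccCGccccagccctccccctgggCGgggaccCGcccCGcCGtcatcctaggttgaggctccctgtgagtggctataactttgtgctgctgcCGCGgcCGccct
Foxr2: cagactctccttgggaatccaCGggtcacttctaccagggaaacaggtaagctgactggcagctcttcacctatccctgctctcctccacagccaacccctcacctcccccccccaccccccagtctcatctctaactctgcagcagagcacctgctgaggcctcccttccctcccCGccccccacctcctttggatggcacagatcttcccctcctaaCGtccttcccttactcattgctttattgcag
The Foxc1 stretch holds 29 CG, that of Foxd3 21, that of Foxo3 31 and that of Foxr2 3.

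RefSeq promoter sequence matched 28 of the 42 members. Their median number of CG in these 250 bases was 16.5, against 10 over 16047 matched promoters of all genes. The median was 19 for the 8 matched forkhead promoters with both marks, 12 for 5 with H3K27me3 alone, 27 for 7 with H3K4me3 alone and 5.5 for 8 with neither. Promoters of all genes gave 14, 8, 17 and 2 in the same order. Marks were scored at the listed start and CG counted before the RefSeq start. These starts lay 2657 bp apart at Foxj3, counted with neither mark at 34 CG, and 1728 bp apart at Foxp1, with 11 CG. The core GTAAACA, searched on both strands, occurred in 1 of the 28 windows, that of Foxa1, and in 2.64% of all matched windows.

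The bivalent group held Foxa1, Foxb1, Foxb2, Foxc1, Foxd1, Foxd2, Foxf2, Foxl2, Foxn4, Foxp2 and Foxq1, which are mostly regulators of regional identity. The H3K27me3-only group included Foxa2, Foxc2, Foxd3, Foxd4, Foxe1, Foxe3 and Foxi3. H3K4me3 alone marked Foxo1, Foxo3, Foxo4, Foxo6, Foxk1, Foxk2, Foxj1, Foxj2, Foxm1, Foxn2, Foxp1, Foxp4, Foxa3 and Foxh1, so all 4 FoxO genes fell here. At Foxa3, Foxh1 and Foxm1 the signal cannot be assigned to the forkhead gene alone, since the starts of Sympk, Ppp1r16a and 5930416I19Rik lay 839, 1667 and 56 bp away on the opposite strand. Foxi1, Foxi2, Foxj3, Foxn1, Foxn3, Foxp3, Foxr1, Foxr2 and Foxs1 had neither mark at the listed start. Foxj3 and Foxn3 are marked elsewhere: their highest H3K4me3 tile, at 42.8 and 35.0 RPM in +/+, lay 3.0 kb and 57.1 kb downstream of the listed start.

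**Figure D1:**
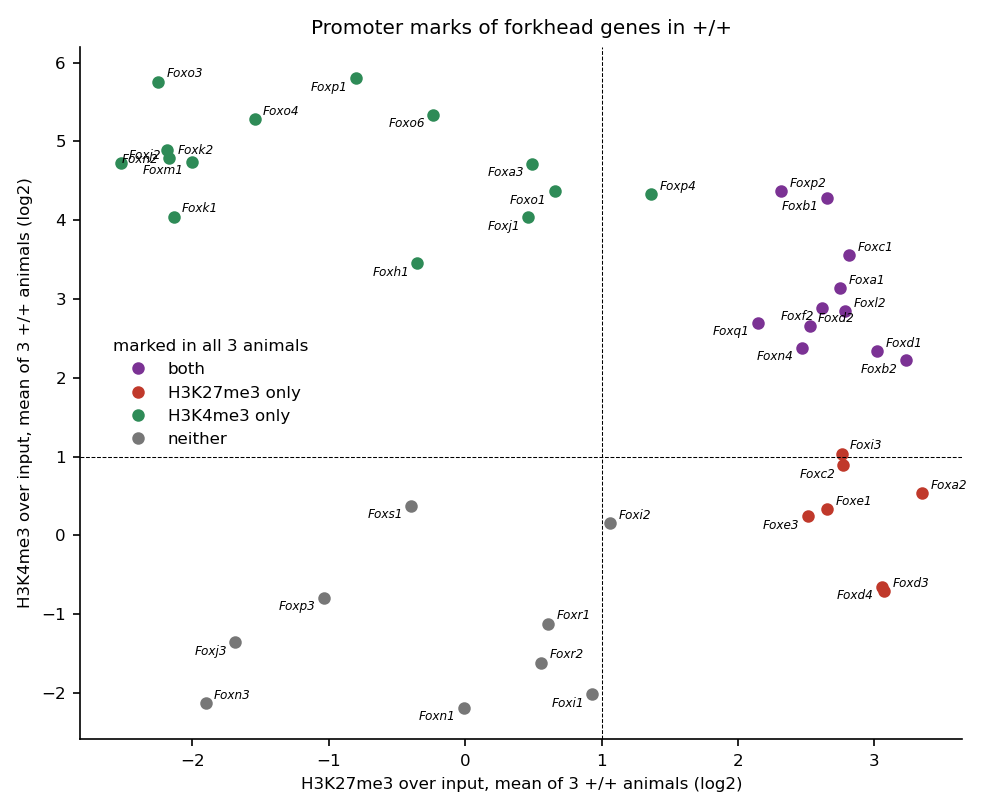
Mean log2 ratio to input of H3K27me3 (x axis) and H3K4me3 (y axis) at 41 forkhead promoters over the 3 +/+ animals, with dashed lines at a ratio of 1 (2-fold) and colours for the marks counted in all 3 animals. H3K27me3-marked promoters stand together at ratios from 2.15 upwards and separate into 11 with H3K4me3 and a group without.

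Expression in +/+ is described by these groups. The median level was 1.96 RPKM for members with H3K4me3 alone and 0.548 RPKM for bivalent members, where the same groups over all genes had medians of 3.35 and 0.534 RPKM. For the other groups a median is not given, since a gene without a read is listed at a value that depends on its length and on the library. With H3K27me3 alone 3 of 8 members had no read in any +/+ library and 2 passed the filter described below, and with neither mark 1 of 9 had none and 4 passed. Over all genes 35.6% and 58.1% of these groups had no read in +/+, against 6.13% of bivalent and 2.12% of H3K4me3-only genes. All 11 bivalent members had reads, and 2 of the 14 with H3K4me3 alone had none. Across the 42 members, promoter H3K4me3 and expression correlated with r = 0.55, promoter H3K27me3 and expression with r = -0.42, and gene body H3K36me3 and expression, over 41 members with a measurable body, with r = 0.59. These describe the +/+ means, and the members share libraries and differ in CpG content, and the 2 measurements come from different animals and sexes. Members without a read enter at their listed values, so that each r depends in part on gene length and library. The H3K4me3 values include Foxa3, Foxh1 and Foxm1, next to other starts, and Foxj3 and Foxn3, marked elsewhere.

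In +/+ the most abundant members were widely expressed ones. Foxk2, a widely expressed transcriptional repressor, stood first at 6.97 ± 2.12 RPKM (SD, n = 5). Foxo3 followed at 4.87 ± 0.97 RPKM, Foxn3 at 4.66 ± 0.74 and Foxj3 at 4.66 ± 0.80, which do not differ from each other beyond their spread. Foxj2 had 2.62 ± 0.76 RPKM and Foxo1, the best known target of insulin signalling in the hypothalamus, 2.41 ± 0.28. Foxo4 (2.03 RPKM) and Foxo6 (0.879 RPKM) completed the FoxO group. Foxb1, a marker of the mammillary body, and Foxj1, the master regulator of motile cilia, were at 2.34 ± 1.04 and 2.33 ± 1.15 RPKM, with a wide spread between animals. The FoxP genes of neurons lay close together, with Foxp1 at 1.90, Foxp4 at 1.77 and Foxp2 at 1.56 RPKM. Foxp3, the regulatory T cell factor, had 6 reads in all +/+ libraries together, and the 6 T cell genes listed summed to 0.154 to 0.355 RPKM.

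Members below 1 RPKM included Foxc1 (0.979 ± 0.232 RPKM), Foxf2 (0.637), Foxq1 (0.570), Foxd1 (0.548), Foxr2 (0.529), Foxb2 (0.414), Foxd2 (0.358), Foxa1 (0.306), Foxc2 (0.179) and Foxs1 (0.136). Foxc1 and Foxf2 are known from meningeal fibroblasts and mural cells of vessels, and markers of both were present. Foxm1, the factor of dividing cells, and Foxl2 only just passed the filter of 0.1 RPKM in at least 4 libraries, with means of 0.0989 and 0.0981 RPKM. Foxa2 did not pass although its mean was 0.104 RPKM, because 13 of its 20 reads in +/+ came from 1 library. In all 28 members passed and 14 did not.

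**Figure D2:**
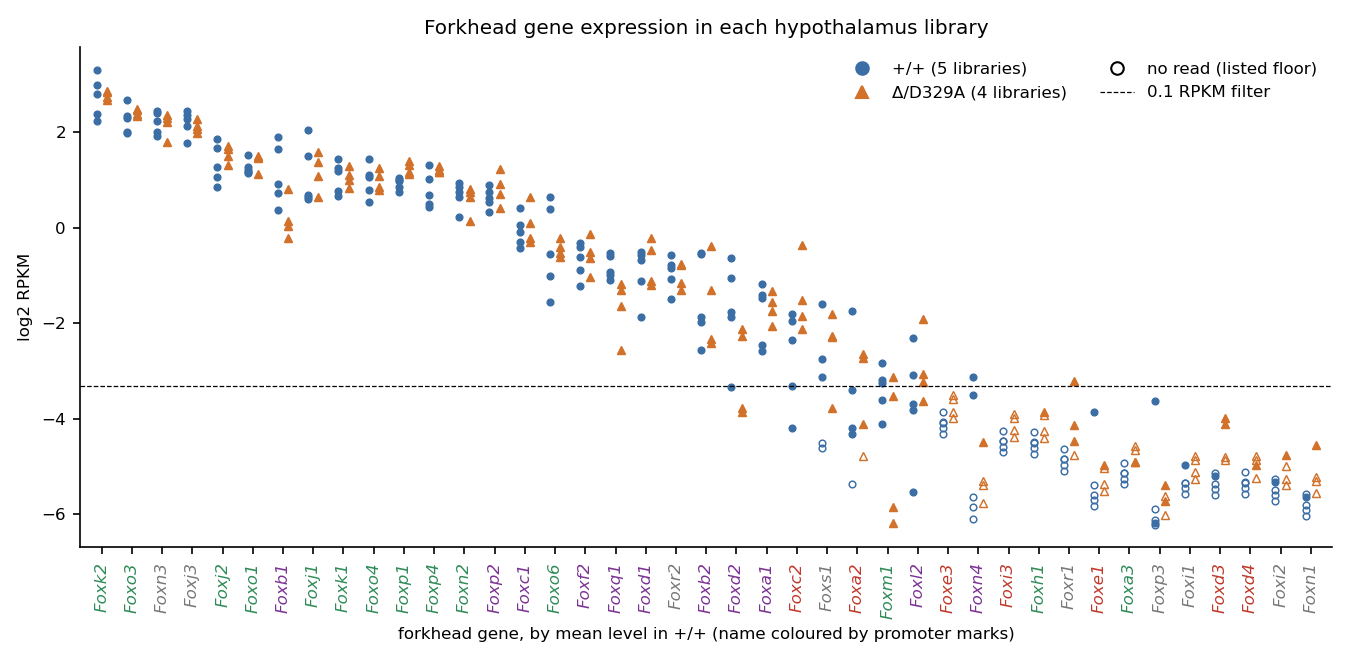
Log2 RPKM of 41 forkhead genes in the 5 +/+ (circles) and 4 Δ/D329A (triangles) libraries, ordered by the +/+ mean, with open symbols where the library held no read and the name coloured by promoter marks as in the scatter plot. The genotypes overlap for every gene above the dashed 0.1 RPKM filter line except Foxp1 and Foxq1.

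By limma and by edgeR no forkhead gene was called different between the genotypes in RNA-seq, and DESeq2 called 1, Foxb1. With limma over 17839 genes at an adjusted p under 0.01, 0 of 28 members and 0.107% of all genes were called. At an unadjusted p under 0.05 there were 5 members, against 7.62% of all genes, and edgeR on the reads called 0 members (0.554% of its genes). On the RPKM scale the 2 genotypes did not overlap for Foxp1, higher in Δ/D329A (1.78% of all genes), nor for Foxq1, lower (1.23%). On RPM, the reads scaled by all reads on genes, they did overlap for Foxp1, and did not for Foxp4, higher (2.66% of all genes), and for Foxq1 and Foxb1, lower (3.21%).

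Foxq1, a bivalent gene next to Foxf2 on chromosome 13, had log2 RPKM values of -0.60, -0.93, -0.53, -0.98 and -1.10 in +/+ and of -1.19, -2.56, -1.31 and -1.64 in Δ/D329A. Each Δ/D329A library was below each +/+ library, on 22 to 34 reads against 5 to 18. The log2 difference was -0.85 ± 0.29 (SE, limma adjusted p = 0.355). Foxp1, a factor of forebrain neurons, had values of 1.04, 0.99, 0.86, 0.74 and 0.98 in +/+ and of 1.40, 1.14, 1.17 and 1.32 in Δ/D329A. On this scale all Δ/D329A libraries were higher, by 0.34 ± 0.14 (log2, limma adjusted p = 0.355). Scaled by reads on genes they had 75.8 to 86.0 RPM against 55.5 to 86.1 RPM in +/+, where replicate 5 lay above them. Gm20696 and Gm20705 overlap Foxp1 on the same strand, so that some of its reads may not be its own.

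Foxb1 had 1.90, 0.92, 1.65, 0.74 and 0.37 log2 RPKM in +/+ and 0.04, -0.22, 0.15 and 0.80 in Δ/D329A. The +/+ values were spread over 65 to 205 reads, and Δ/D329A replicate 4 lay above the lowest 2 of +/+. The log2 difference was -0.92 ± 0.33 by limma (adjusted p = 0.355). DESeq2 gave -0.95 with an adjusted p of 0.0091 and called 1.23% of its genes, while edgeR gave -0.95 with an adjusted p of 0.0449, short of the limit of 0.01. Genes that mark the mammillary and adjoining hypothalamus are given beside it. By limma 0 of 8 were called and by DESeq2 and edgeR 1, Sim1, lower. By limma their median log2 difference was -0.23 and 5 of 8 were below 0, with Sim1 at -0.82 and Lhx1 at -0.50. Their summed level ranged from 6.34 to 11.5 RPKM in +/+ and from 5.18 to 7.85 RPKM in Δ/D329A. In these bulk samples fewer cells of a type and less RNA per cell cannot be told apart, and the part of dissected tissue in the Foxb1 difference was not tested.

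Foxc2, a factor of mesenchyme and lymphatic vessels, had 2 to 12 reads per +/+ library and 7 to 28 in Δ/D329A. The groups overlapped and the log2 difference was 1.27 ± 0.52 (limma adjusted p = 0.355). Gm20388 overlaps Foxc2 on the same strand, so that some of these reads may not be its own. Foxd2 had 4 to 31 reads against 2 to 8, with a log2 difference of -1.27 ± 0.56 (limma adjusted p = 0.355). 9130206I24Rik, on the opposite strand, starts 359 bp from it, and it was not stated whether the counting used strand. For Foxc1, Foxk2, Foxo3, Foxo1, Foxn3, Foxj3 and Foxj2 the log2 differences were 0.12, 0.03, 0.16, 0.13, -0.03, -0.08 and 0.20, all smaller than the SD between +/+ libraries.

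The library of +/+ replicate 1 held 13 reads of Foxa2 against 0 to 5 in every other library, a gene singled out after its values were seen. Foxa2 is a factor of the floor plate and of dopamine neurons. Cortical projection neuron genes summed to 3.44 RPKM in that library, to 2.05 to 3.25 RPKM in the other +/+ libraries and to 2.59 to 3.93 RPKM in Δ/D329A.

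Of the 14 members outside the filter, 9 had an exact permutation p under 0.05 on the log2 RPKM scale, where the smallest p that 5 against 4 allows is 0.00794, and 73.2% of all genes outside the filter had one. These p-values follow how absent genes are listed. Foxe3 and Foxi3 are among the 9 and had 0 reads in all 9 libraries. A gene without a read is listed at the value of 0.9 reads, which is higher where fewer reads were sequenced. On reads scaled by library depth, 1 of the 14 was left, Foxr1, a gene of germ cells, with 0 reads in +/+ and 4 in Δ/D329A (exact permutation p = 0.0476). Of all genes outside the filter 2.28% had such a p on this scale, and 4.33% of those with at least 1 read. No difference in the other 13 was detectable at this depth.

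At the promoters, the clearest difference between genotypes was lower H3K27me3 at Foxc1, a regulator of head mesenchyme, meninges and vessels. The promoter fit covered all 25952 promoters without a filter, and in simulated data it recovered 0 of 200 H3K27me3 changes of 1 on the log2 scale, against 153 of 200 where promoters with a mean under 0.25 RPM were left out. Simulated animals had a spread that was set beforehand and not estimated from these animals, and changes were placed only at promoters far above that filter. Recovery at weaker promoters, among them those just above the filter, or at a wider spread was not measured. Adjusted p-values of both fits are therefore given, and each SE of a promoter difference is that of the fit without the filter. Without the filter, 0 of 42 forkhead promoters and 0% of all were called at an adjusted p under 0.05. With it, 1 of 31, Foxc1, was called, against 1.43% of all. At an unadjusted p under 0.05 there were 11 of 42, against 8.9% of all.

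Foxc1 had 5.41, 5.31 and 5.13 RPM of H3K27me3 in the +/+ animals and 2.55, 2.92 and 2.16 RPM in Δ/D329A. The highest Δ/D329A animal was well below the lowest +/+ animal, on 96 to 112 against 37 to 72 reads in the tile at the start. The log2 difference was -1.04 ± 0.13 (SE), with an adjusted p of 0.193 in limma over all promoters and of 5.4e-04 over those with at least 0.25 RPM. edgeR on the reads of 1 tile gave -1.31 (adjusted p = 6.3e-06) and called 1.51% of its promoters. Input at Foxc1 was 0.681 ± 0.189 RPM in +/+ and 0.680 ± 0.034 in Δ/D329A.

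The lower signal at Foxc1 covered part of the domain. Within 10 kb of the start, 16 of 20 tiles had every Δ/D329A animal below every +/+ animal and 1 had the reverse. From 6354.5 to 14354 bp after the start no tile was lower in this way. At 8354.5 bp the Δ/D329A animals had 3.70, 2.60 and 2.44 RPM against 1.89, 2.28 and 2.23 RPM in +/+. Over the 30 tiles that were 2-fold above input in +/+, from 8.65 kb before to 20.4 kb after the start, the mean was 3.96, 3.94 and 4.20 RPM in +/+ and 2.59, 2.75 and 2.41 RPM in Δ/D329A. H3K4me3 at the promoter was higher, at 12.4, 17.9 and 13.1 RPM against 10.1, 9.58 and 7.32 RPM. No animals of the 2 genotypes overlapped, and the log2 difference was 0.67 ± 0.19 (limma adjusted p = 1 without and 0.0928 with the filter). Within 10 kb of the start 3 of 20 H3K4me3 tiles were higher without overlap and 0 lower. The mean of the 20 overlapped, at 5.22, 4.87 and 3.13 RPM in +/+ and 6.82, 6.33 and 3.82 RPM in Δ/D329A. Over the 3 tiles of the gene body H3K36me3 was 0.511, 0.30 and 0.523 RPM in +/+ and 0.844, 0.737 and 1.01 RPM in Δ/D329A (log2 difference 0.84 ± 0.21, limma adjusted p = 0.228). Foxc1 RNA was at 0.979 ± 0.232 RPKM in +/+ and 1.08 ± 0.35 RPKM in Δ/D329A, a log2 difference of 0.12 ± 0.25 (limma adjusted p = 0.927). Meningeal fibroblast genes, with which Foxc1 is known to be expressed, summed to 9.18 to 31.8 RPKM in +/+ and 13.2 to 33.1 RPKM in Δ/D329A, and 0 of 9 were called, with a median log2 difference of 0.16.

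**Figure D3:**
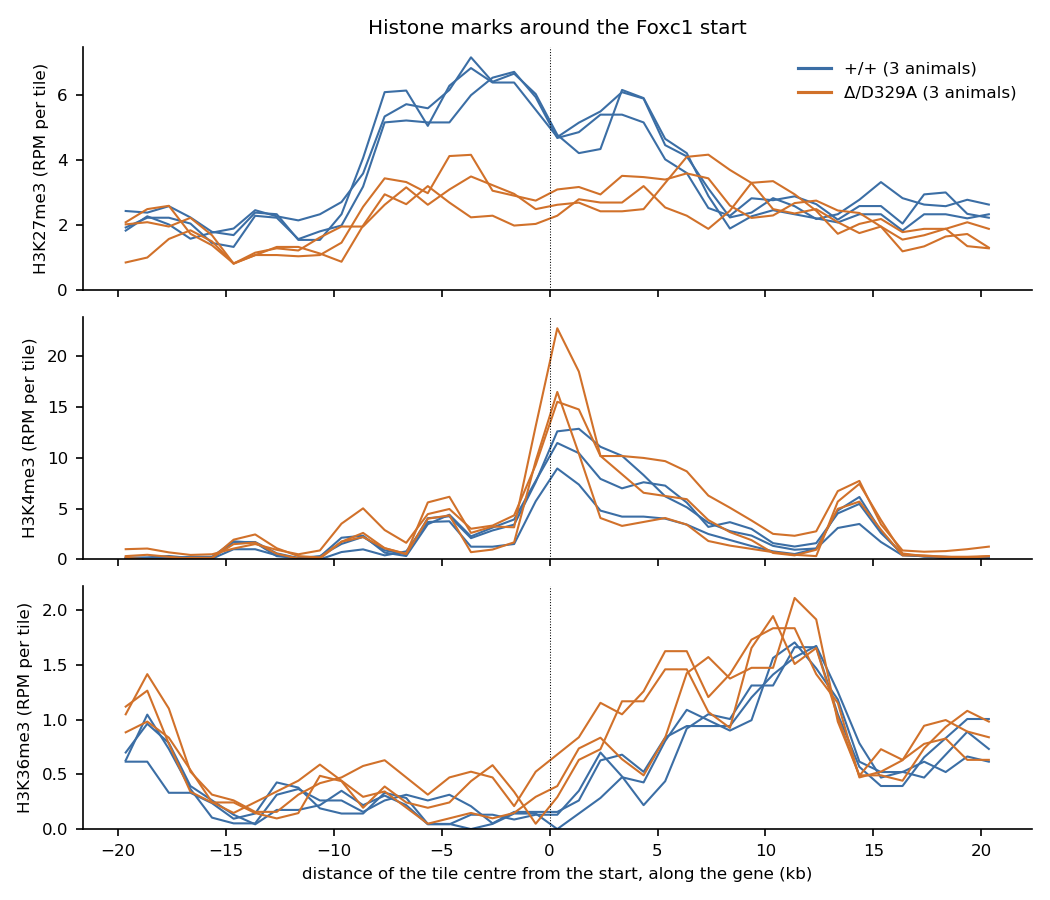
RPM per 2 kb tile of H3K27me3, H3K4me3 and H3K36me3 (y axes) against distance from the Foxc1 start (x axis, kb), 1 line per animal. H3K27me3 of the 3 Δ/D329A animals runs below that of the 3 +/+ animals in 16 of the 20 tiles within 10 kb, while the H3K4me3 peak is higher.

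Foxc1 has 2 forkhead neighbours on chromosome 13. Foxq1, Foxf2 and Foxc1 lie in that order, 64.8 kb and 175 kb apart. At Foxf2 promoter H3K27me3 was 4.91, 5.46 and 5.65 RPM in +/+ and 5.55, 4.91 and 5.18 RPM in Δ/D329A, overlapping, although 9 of the 20 tiles within 10 kb were lower without overlap and 0 higher. At Foxq1 it was 4.88, 5.01 and 6.02 RPM against 6.82, 5.56 and 7.08 RPM, a log2 difference of 0.28 ± 0.14 (limma adjusted p = 0.606). Around it 6 of the 20 tiles within 10 kb were lower without overlap and 4 higher, and the mean of the 20 was 3.34, 3.23 and 3.59 RPM in +/+ and from 3.24 RPM upwards in Δ/D329A, overlapping. Foxq1 H3K4me3 went the other way, at 8.73, 7.58 and 7.19 RPM in +/+ and 5.21, 6.70 and 4.03 RPM in Δ/D329A, with no overlap (log2 difference -0.58 ± 0.21, limma adjusted p = 1).

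The H3K27me3-marked members were mostly below 0 in Δ/D329A without being called. Of the 19, 18 were below 0 on the log2 scale, with a median of -0.19, and Foxq1 alone was above. The same count over all promoters marked in +/+ was 50.7%, with a median of -0.01. Forkhead promoters are among the stronger ones, and the level bears on this comparison: of the 808 promoters of all genes with at least 4 RPM in +/+, 74.9% were below 0 with a median of -0.12, and of the 18 forkhead promoters of that strength 17 were, with a median of -0.25. These groups were set on the +/+ values, which favours lower values in the other genotype. The same 19 members pass this limit in the Δ/D329A animals, so their median of -0.19 is unchanged, where all promoters so chosen had 0.08. Level was not matched there: the median in +/+ was 3.17 RPM for all promoters so chosen and 5.34 RPM for the 19 members. Centring each library on its median left 12 of the 19 below 0, with a median of -0.14, and dividing by input left 14.

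The animals of the 2 genotypes did not overlap for 10 of the 42 promoters in the lower direction, against 7.31% of all promoters, and for 3 in the higher direction, against 6.3%. Marked members among the 10 included Foxc1, Foxc2, Foxd1, Foxd2, Foxd4, Foxl2 and Foxp2, and Foxc1 was the only one called in any fit. In all 8 of 19 marked members were lower and 0 higher, against 14.6% and 7.81% of all promoters with the mark. Of the 808 promoters of all genes with at least 4 RPM in +/+, 27.6% were lower and 1.24% higher without overlap. Of the 18 forkhead promoters of that strength 8 were lower and 0 higher. Foxd4, the strongest of the family in +/+, had 7.36, 7.63 and 7.59 RPM against 5.45, 6.21 and 5.48 RPM. Foxp2, a gene of the thalamus and striatum best known for its part in vocal learning, had 4.56, 3.84 and 3.97 RPM against 3.09, 3.15 and 3.30 RPM. Foxd2 had 5.38, 5.28 and 5.97 RPM against 3.90, 4.34 and 4.70 RPM. These 3 differences were -0.39, -0.36 and -0.36 on the log2 scale, with limma adjusted p of 0.422, 0.434 and 0.476. The other members without overlap, Foxj3 and Foxm1 lower and Foxi2, Foxk2 and Foxs1 higher, had under 3 RPM in every animal. Foxj3 had 0.252, 0.270 and 0.223 RPM against 0.034, 0.096 and 0.178 RPM, which is 3 to 6 against 0 to 3 reads, and Foxp1 had 0.252, 0.480 and 0.099 against 0.034, 0.115 and 0.228 RPM, overlapping. Both were below input.

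**Figure D4:**
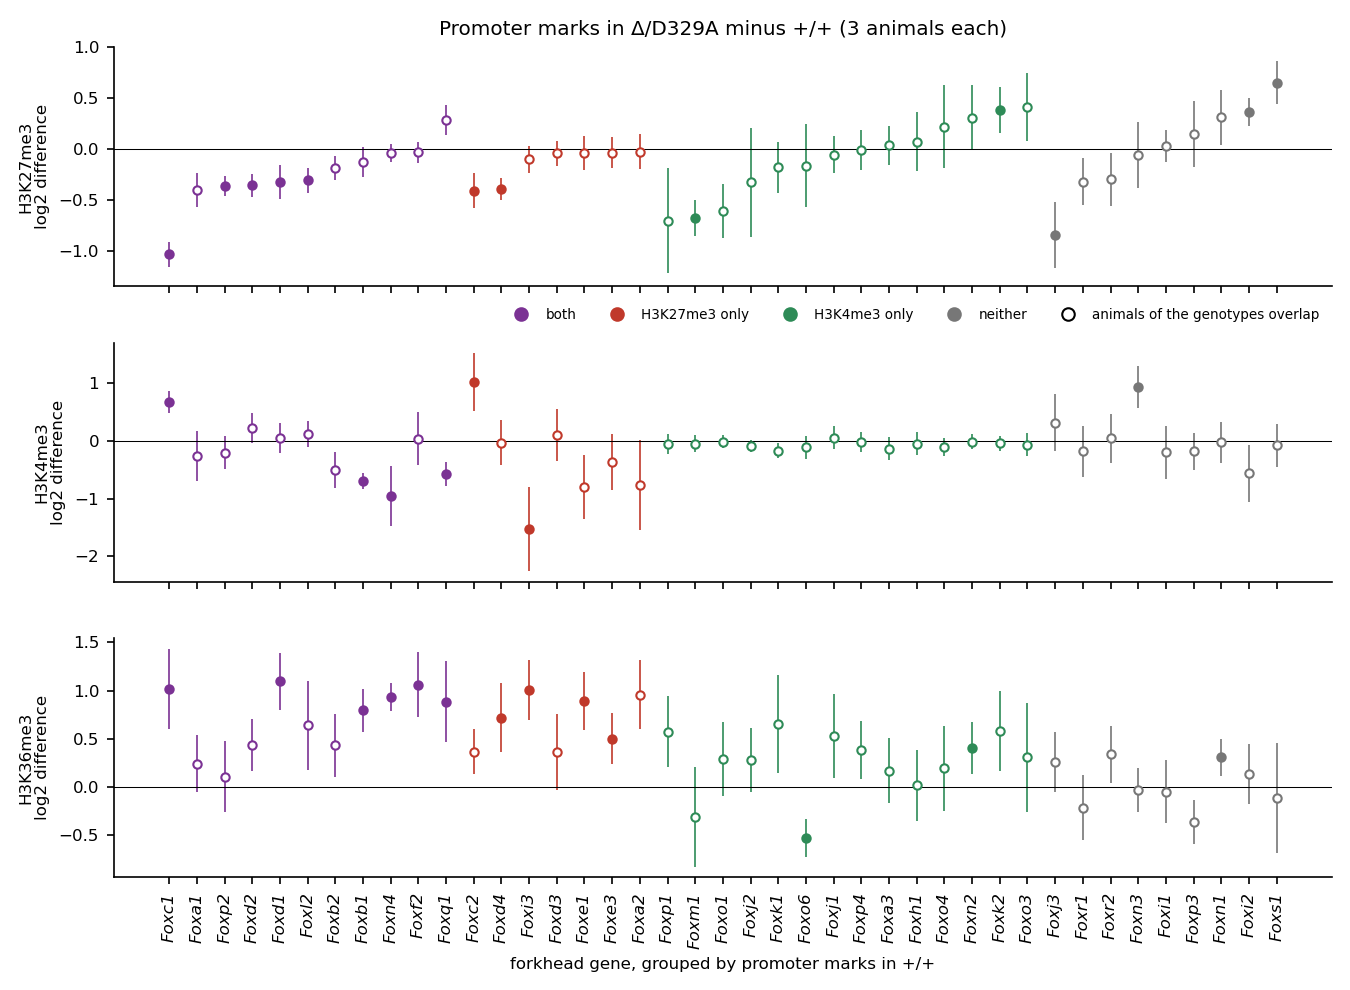
Log2 difference of promoter signal, Δ/D329A minus +/+, with its standard error (bars), for H3K27me3, H3K4me3 and H3K36me3, the genes grouped and coloured by their +/+ marks and filled where the 3 animals of each genotype do not overlap. Foxc1 stands lowest for H3K27me3 at -1.04, and the H3K27me3-marked members drawn are above 0 for H3K36me3, on signals of a few reads.

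H3K27me3 domains around the 19 marked starts were 11 to 70 kb wide in +/+, counted as tiles in a row 2-fold above input, with a median of 33 kb against 29 kb in Δ/D329A. They were narrower in Δ/D329A for 12 (43.8% of all promoters with the mark in +/+), as wide for 3 and wider for 4 (35.8% of all). Of all promoters chosen by the mark in Δ/D329A, 33.5% had a narrower and 47.0% a wider domain. The members so chosen are the same 19, so their counts of 12, 3 and 4 are unchanged. Foxd1 went from 55 to 33 kb, Foxb1 from 45 to 27 kb and Foxd4 from 20 to 10 kb. Foxd2 and Foxe3, 16.2 kb apart on chromosome 4, share the widest domain, at 70 kb in +/+ and 78 kb in Δ/D329A. Over the +/+ domain, 11 of 19 had every Δ/D329A animal below every +/+ animal and 0 the reverse, against 19.9% and 7.35% of all promoters with the mark. Tiles set on +/+ favour lower values in the other genotype. Over the domain set on Δ/D329A, 10 of 19 were lower and 0 higher (17.6% and 10.2% of all), and over all tiles within 10 kb of the start 11 and 0 (17.9% and 8.59% of all). Neighbouring genes share domains, so these are not independent. The shares of all promoters given for domains and windows were not matched for the level of H3K27me3. Some members outside the 19 also had a domain by this count. Foxp4 had 14 kb in +/+ and 0 kb in Δ/D329A, Foxi2 7 and 9 kb, Foxa3 5 and 5 kb and Foxi1 0 and 3 kb.

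H3K4me3 at members marked by it alone was nearly the same in the genotypes. Foxo3 had 43.2, 40.5 and 43.7 RPM in +/+ and 31.6, 49.9 and 42.5 RPM in Δ/D329A, and the log2 differences of the 14 ran from -0.17 at Foxk1 to 0.06 at Foxj1. Over all 42 members 0 were called without the filter (0% of all promoters), and 4 had an unadjusted p under 0.05 (3.47% of all). With it 3 of 37 were called, Foxi3 and Foxn4 among them, against 1.45% of all. No overlap was found for 4 lower members, Foxb1, Foxi3, Foxn4 and Foxq1 (4.22% of all promoters), and for 3 higher ones, Foxc1, Foxc2 and Foxn3 (1.83%). Among all promoters with H3K27me3 in +/+, 22.2% were lower without overlap and 3.43% higher.

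Foxb1 H3K4me3 was 16.3, 17.3 and 14.98 RPM in +/+ and 11.1, 10.6 and 8.36 RPM in Δ/D329A. All Δ/D329A animals were lower, by 0.70 ± 0.13 on the log2 scale (limma adjusted p = 0.988 without and 0.0639 with the filter), and 16 of the 20 tiles within 10 kb did not overlap. Its H3K27me3 did overlap, at 4.47, 5.16 and 5.85 RPM against 4.03, 4.85 and 5.25 RPM. Promoters of the 8 mammillary region genes averaged 10.2, 12.6 and 8.88 RPM of H3K4me3 in +/+ and 6.91, 5.15 and 6.37 RPM in Δ/D329A. This was not particular to the mammillary list. Promoters of the cortical projection list averaged 2.68 to 6.85 RPM in +/+ and 1.37 to 1.76 RPM in Δ/D329A, also without overlap. For the other gene lists the genotypes overlapped. The part of the mammillary region genes in the Foxb1 result was not tested.

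Foxi3, a factor of skin appendages and the inner ear with 0 reads of RNA, had 2.12, 2.06 and 1.74 RPM of H3K4me3 in +/+ and 0.721, 1.62 and 0.161 RPM in Δ/D329A. The log2 difference of -1.53 ± 0.73 had an adjusted p of 1 in limma without the filter and 0.0026 with it, and edgeR gave -1.10 (adjusted p = 0.595). Foxn4, a factor of retinal and spinal progenitors, had 3.16, 3.66 and 4.34 RPM against 0.784, 2.998 and 2.61 RPM (log2 difference -0.96 ± 0.52, limma adjusted p = 1 without and 0.0465 with the filter). For Foxi3 and Foxn4 the SE is that of the fit without the filter and does not belong to the call. Foxc2 had 1.30, 1.70 and 0.985 RPM against 5.55, 1.89 and 1.90 RPM, and the high value was that of the animal with the high H3K4me3 background (log2 difference 1.02 ± 0.50, limma adjusted p = 1).

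**Figure D5:**
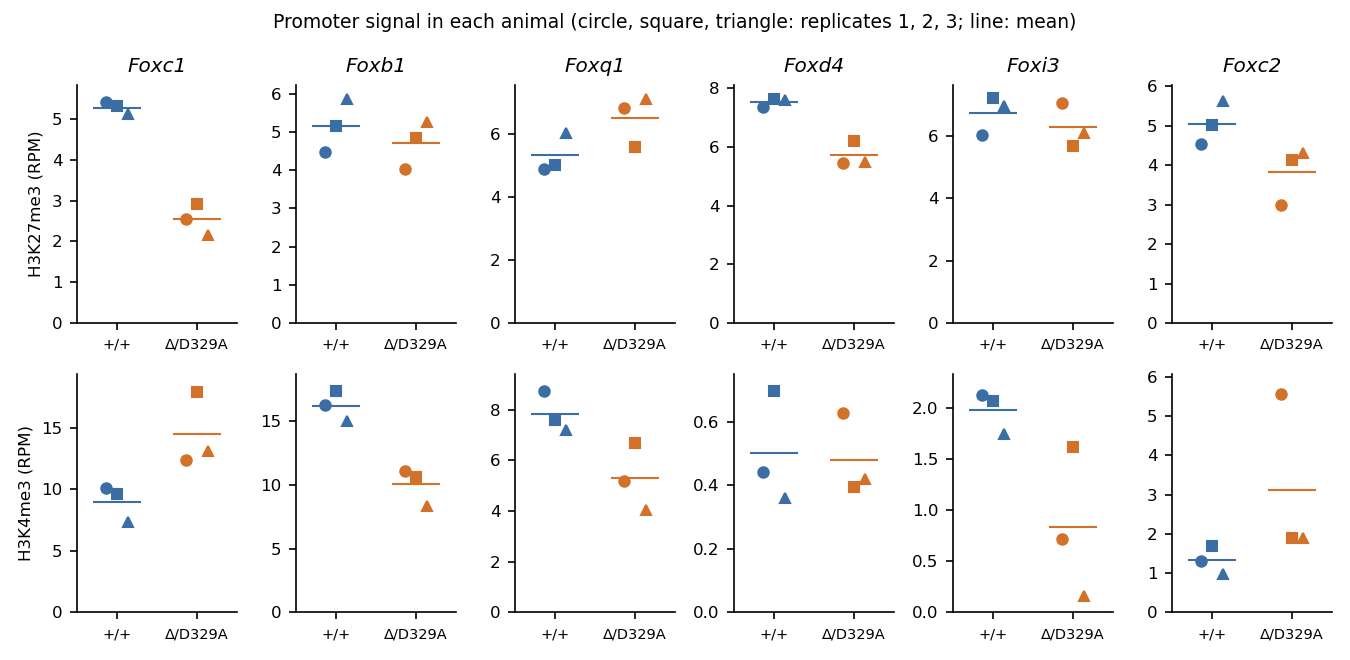
Promoter H3K27me3 (top) and H3K4me3 (bottom) in RPM for 6 members in each animal, with a line at the mean of the 3 animals of a genotype and a scale of its own in each panel. Foxc1 separates for both marks, Foxb1, Foxq1 and Foxi3 for H3K4me3, while Foxd4 separates for H3K27me3 at over 7 RPM in +/+ and has under 1 RPM of H3K4me3.

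H3K36me3 at the 19 forkhead promoters with H3K27me3 was below input in both genotypes. No member was called (0 of 42, against 0.0231% of all promoters), and 0 of the 9 that passed the filter of 0.25 RPM (0.0429% of all), of which 1 had H3K27me3. The log2 difference was above 0 for 35 of 42, with a median of 0.36 against 0.11 over all promoters, 12 were higher without overlap (8.99% of all) and 1, Foxo6, lower (2.67%), and 9 had an unadjusted p under 0.05 (6.58%). All 19 members with H3K27me3 were above 0, with a median of 0.72. Of the 2189 promoters of all genes with H3K27me3, 1673 were above 0 and 23.6% below, with a median of 0.28. Without overlap 10 of the 19 were higher (20.1% of all with the mark). Level bears on this too. Of the 808 promoters with at least 4 RPM of H3K27me3 in +/+, 694 were above 0, with a median of 0.43, and 28.8% were higher without overlap. All 18 forkhead promoters of that strength were above 0, with a median of 0.68, and 9 were higher without overlap. The signals are of a few reads: Foxd1, with the largest difference (1.10 ± 0.30), had 0.109, 0.024 and 0.026 RPM in +/+ and 0.146, 0.319 and 0.210 RPM in Δ/D329A. Foxf2 (1.06 ± 0.34) had 0.055 ± 0.009 against 0.245 ± 0.148 RPM and Foxc1 (1.02 ± 0.41) 0.120 ± 0.044 against 0.373 ± 0.218 RPM. With a pseudocount of 1 RPM in place of 0.1 RPM the median of the 19 fell to 0.15. Over gene bodies 0 of 41 members were called (0% of all), Foxc1, Foxd2, Foxd4, Foxi3, Foxl2 and Foxq1 were higher without overlap (7.14% of all genes) and Foxj2, Foxj3 and Foxn3 lower (14.9%). Input itself gave 0 calls, 3 promoters higher and 2 lower without overlap (6.26% and 3.75% of all), 5 members with an unadjusted p under 0.05 (4.96%) and a median of -0.01. All 5 without overlap are among the 19 with H3K27me3, whose input had a median of 0.05. Among all 2189 promoters with the mark 241 were higher and 46 (2.1%) lower in input without overlap, with a median of 0.10, the direction in which H3K36me3 differed, and its part in that was not tested.

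No gene of the pathways around the family was called by limma, edgeR or DESeq2. Of the FoxO target genes tested, 0 of 17 were called, with a median log2 difference of 0.01, and of the insulin and PI3 kinase genes upstream 0 of 12, with a median of 0.04. Pomc, repressed by Foxo1, was at -1.06 (limma adjusted p = 0.355), Agrp, activated by it, at 0.14 (adjusted p = 0.962), Txnip at 0.49 (adjusted p = 0.355) and Cdkn1b at -0.19 (adjusted p = 0.792). Of the motile cilium genes regulated by Foxj1, 0 of 8 in the table were called, with a median of 0.08.

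Among other cell types, limma called no gene in the lists of cortical projection (0 of 6, with a median log2 difference of -0.03), striatal (0 of 6, -0.12), thalamic (0 of 6, 0.74), anterior pituitary (0 of 5, -0.01), mural (0 of 7, -0.14), endothelial (0 of 8, -0.01) and choroid plexus genes (0 of 4, -0.14). The median of the 12 hypothalamic neuron genes was -0.06, also with 0 called by limma, and none of the T cell genes passed the filter. The 6 thalamic genes all had a log2 difference above 0, summing to 51.1 to 82.2 RPKM in +/+ and 73.2 to 98.0 RPKM in Δ/D329A. Of the medial habenula genes 1 of 5 was called, Pou4f1, with 0 to 5 reads in +/+ and 27 to 58 in Δ/D329A, and the median of the 5 was -0.29. Anterior pituitary genes summed to 0.676 RPKM in +/+ replicate 1 and to 2.76 to 17.1 RPKM in the other libraries. On the reads DESeq2 called more of the listed genes. Among those it called were Gbx2, Lhx9 and Rora of the thalamic list, Tbr1 of the cortical, Ppp1r1b of the striatal and Ttr of the choroid plexus list, all higher in Δ/D329A, and Cartpt and Sim1 of the hypothalamic list, both lower. Of these edgeR called Ppp1r1b, Cartpt and Sim1. The bearing of these on the forkhead differences was not tested.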

How the data were processed

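RNA-seq was made from hypothalamus of 9 mice and native ChIP-seq, in which each hypothalamus was shared between antibodies and input, from 6. The authors deposited log2 RPKM per gene, in which a gene without a read stands at 0.9 reads, and for ChIP a signal in RPM (reads scaled by mapped reads) per 2000 bp tile every 1000 bp. Tools named in the submitters' processing notes were Trim Galore 0.4.3, HISAT2 2.0.5, Bowtie2 2.3.2 and Bismark 0.19.0, without roles. 1 further Δ/D329A RNA library was left out by the authors. Whole reads were recovered for 25964 of 25965 genes (within 0.02 reads) and for 100% of tiles (within 0.01 reads).

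Samples were grouped by the genotype in their labels. limma 3.58.1 (R 4.3.3), with a trend in the variance, was fitted to log2 RPKM of genes with at least 0.1 RPKM in at least 4 libraries, leaving out 13 mitochondrial genes (called at an adjusted p under 0.01), and to log2(RPM + 0.1) of all 25952 promoters and of gene bodies from 500 bp after the start (adjusted p under 0.05). p-values were adjusted by Benjamini-Hochberg over all features. The pseudocount of 0.1 RPM makes differences of low signals appear smaller. Genes outside the filter had a two-sided exact permutation test; with 3 animals against 3 such a test cannot go below 0.1, so none was made for ChIP. edgeR 4.0.16 and DESeq2 1.42.0 on the recovered reads, other filters, pseudocounts, windows and centrings, and leaving out each library were alternatives. edgeR called 77 genes and DESeq2 250. On simulated data, with a spread set beforehand and not estimated from these animals, the RNA fit recovered 169 of 200 changes of 2 on the log2 scale. Same-numbered animals did not deviate together in all pairs, so numbers were not taken to pair them.

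Members, gene lists and tests were chosen with earlier results of these data known. Named with values were members called in any comparison, those whose genotypes did not overlap in RNA-seq, the 6 highest in +/+ and the 3 largest promoter differences per mark; Foxb1, Foxd2, Foxd4, Foxf2, Foxn4, Foxp2, Foxr1 and other members were added after their values were seen. Some items that entered the fits and counts are not reported here. A caption of the study names a strand-specific kit, but it was not stated whether counting used strand, so overlapping genes may share reads. p-values measure the spread between these animals.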

Additional observations from a re-analysis of the deposited data

Results flagged for a closer look

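Of 54 groups of 4 or 5 RNA-seq libraries tested for a value far from the others, 1 stood out, and chance alone gives about 1 in 20. Foxo1 was at 1.13 log2 RPKM in the lowest Δ/D329A library and at 1.45 to 1.5 in the other 3. The cause was not tested.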

How the results depend on the processing

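The forkhead calls depend on the fit. RNA-seq gave 1 forkhead call with DESeq2 and 0 otherwise, while calls over all genes went from 19 to 11 with a filter at 0.5 RPKM, 34 with median centring, 77 with edgeR, 250 with DESeq2 and 11 to 18 without 1 library, 12 and 11 without Δ/D329A replicates 1 and 4. For promoter H3K27me3, 1 forkhead call (Foxc1) was made with promoters of at least 0.25 RPM, with median centring and with edgeR, beside 227, 54 and 188 over all promoters. For H3K4me3 there were 3 forkhead calls with the 0.25 RPM filter, 1 (Foxc1, 0.88, limma adjusted p = 0.0256) with median centring and 0 with edgeR, beside 269, 28 and 80 over all. H3K36me3 calls over all promoters went from 6 to 0 with a pseudocount of 1 RPM, the replicate block, median centring, ratio to input or edgeR, and ranged from 5 to 19 without 1 animal, input calls up to 16 and gene body calls up to 4. The replicate block gave no forkhead call. Outside the expression filter 9 became 1 on reads scaled by depth, an alternative added after seeing the data, as were the counts of marked members: with the 0.25 RPM filter 1 of 1 was left for H3K36me3, and 14 to 18 of 19 stayed lower for H3K27me3 when 1 animal was left out. Of the listed pathway and cell type genes limma called 1, DESeq2 10 and edgeR 5, a count added after seeing the data, as were RNA-seq overlap on reads scaled by depth and the other H3K27me3 domains and windows. Foxc1 RNA reversed to -0.0787 without Δ/D329A replicate 3 (up to 0.2392 without another library). Median centring moved the median over all promoters from -0.07 to 0.14 for H3K4me3 and from 0.11 to -0.10 for H3K36me3. Causes were not tested. Of the single-gene values under alternatives, 310 kept direction and call, 7 gained a call and 1 reversed.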
